A study of Homo sapiens with 9 samples.

Results

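The genes of the prostaglandin pathway were examined in KHM-5M cells, a human thyroid cancer line, after 24 h with DMSO, 0.3 μM YK-4-279 or 1 μM YK-4-279. YK-4-279 is a small molecule known as an inhibitor of ETS family transcription factors, and DMSO is the vehicle. Poly(A) RNA-seq was performed on 3 samples in each of 3 groups, 9 samples in all. The 10 genes were PTGS1, PTGS2, PTGES, PTGES2, PTGES3, PTGR1, HPGD, PLA2G4A, PTGER2 and PTGER4, of 58735 genes listed and 19951 protein-coding genes. They were taken by name, and the pathway was selected because PTGS2 was among the 3 largest rises at 1 μM. The levels and fold changes of PTGS2 in any comparison with the 1 μM samples are therefore given as a description, with no test. In that ranking EGR1 and CCL20 stood above PTGS2, at log2 fold changes of 3.09 and 2.72 against 2.70 for PTGS2, and the gene just below it, SERF1B, was at 2.38. All samples came from 1 cell line, and the labels do not say whether samples of a group came from separate cultures, so p-values measure only the spread between these samples.

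Prostaglandins are lipid signals made from arachidonic acid. Cytosolic phospholipase A2 frees the arachidonic acid from membranes, a cyclooxygenase turns it into prostaglandin H2, and a terminal synthase makes prostaglandin E2, which is read by G protein-coupled receptors and is later oxidised and inactivated. Of the cyclooxygenases, PTGS1 (COX-1) is known as the constitutive form and PTGS2 (COX-2) as the form induced by cytokines, growth factors and tumour-promoting signals. Its mRNA is known to be short-lived.

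The promoters of PTGS2, PTGES and PTGS1 are printed here because PTGS2 is the gene the selection turned on, PTGES is the member that passed the test at 1 μM among those tested there, and PTGS1 is the second cyclooxygenase. They are RefSeq sequences of GRCh38.p14, each 250 bases before and 50 bases after the gene's start, read 5′ to 3′ on the gene's strand. Capitals mark the ETS core GGAA and the TATA motif TATAAA on either strand, so that TTCC and TTTATA are the reverse strand forms.
PTGS2 promoter, chr1:186680374-186680673, minus strand: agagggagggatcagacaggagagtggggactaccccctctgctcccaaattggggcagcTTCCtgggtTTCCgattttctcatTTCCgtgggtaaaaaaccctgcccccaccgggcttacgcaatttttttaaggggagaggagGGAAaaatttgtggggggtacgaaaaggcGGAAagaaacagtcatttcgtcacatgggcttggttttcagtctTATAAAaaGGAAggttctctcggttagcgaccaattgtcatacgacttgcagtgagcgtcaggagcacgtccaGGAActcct
PTGES promoter, chr9:129752993-129753292, minus strand: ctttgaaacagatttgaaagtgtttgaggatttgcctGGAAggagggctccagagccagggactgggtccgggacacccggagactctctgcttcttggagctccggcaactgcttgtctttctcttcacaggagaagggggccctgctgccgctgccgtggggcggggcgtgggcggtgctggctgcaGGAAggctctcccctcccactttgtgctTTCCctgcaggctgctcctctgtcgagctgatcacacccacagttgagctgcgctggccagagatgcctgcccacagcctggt
PTGS1 promoter, chr9:122370283-122370582, plus strand: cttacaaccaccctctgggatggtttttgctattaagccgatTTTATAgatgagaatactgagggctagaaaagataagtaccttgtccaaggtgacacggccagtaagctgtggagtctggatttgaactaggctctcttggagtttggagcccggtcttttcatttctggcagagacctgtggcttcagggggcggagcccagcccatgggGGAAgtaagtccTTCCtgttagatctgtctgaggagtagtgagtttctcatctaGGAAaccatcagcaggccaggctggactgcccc

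The PTGS2 window held 7 matches to GGAA, the PTGES window 3 and the PTGS1 window 3. At least 1 match was present in 10 of 10 members and in 95.5% of 27305 promoters of the same length. The median over all promoters was 3 matches, and 8.40% held 7 or more. With the start base counted as 0, TATAAA lay at -32 to -27 in PTGS2, and its reverse strand form lay at -208 to -203 in PTGS1. The other 8 members held none, and 12.0% of all promoters held it. The E-box CACGTG was found in HPGD only and in 7.43% of all promoters, counting both strands. No member held TGACGTCA, the cAMP response element (1.98% of promoters), or TGANTCA, the AP-1 motif (7.76%). The NF-kB consensus, whose matches can overlap GGAA, was matched in PTGES3, HPGD, PTGER2 and PTGER4 and in 10.8% of promoters. Only exact matches to each motif were counted, so that variant sites were not sought and their absence is not shown. The matches are a description of letters in these windows.

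The libraries held 16903251 to 18238884 counts, so that 3 counts, used as the detection floor, corresponded to 0.164 to 0.177 CPM. CPM here is a count divided by its library's total and, for all levels of genes, also by edgeR's trimmed-mean (TMM) factor. The mitochondrial share of counts was 2.84% to 3.44%. Of 8 thyroid lineage markers, 3 reached 1 CPM on average (PAX8, HHEX and FOXE1). Of 5 epithelial markers 4 reached 1 CPM, with summed levels of 1747 to 1756 CPM with DMSO, 1682 to 1820 at 0.3 μM and 1733 to 1859 at 1 μM. Of 6 mesenchymal markers 4 reached 1 CPM, and their summed level was 6300 to 6828 CPM with DMSO, 6460 to 8184 at 0.3 μM and 7063 to 8276 at 1 μM, where it did not overlap DMSO. Of 4 endothelial markers 2 reached 1 CPM, summing to 5.41 to 6.34 CPM with DMSO and 4.54 to 5.87 at 1 μM. Leukocyte markers were low, with 2 of 6 at 1 CPM or more. Their summed level was 1.05 to 2.56 CPM with DMSO, 2.01 to 2.20 at 0.3 μM and 3.35 to 3.67 at 1 μM, where it did not overlap DMSO. The part of these markers in the results was not tested. PTPRC, which defines leukocytes, had 0 counts in 8 of 9 samples and 1 count in the other. CD14, of the same list, was higher at 1 μM than with DMSO, and its counts are given below. In bulk RNA, more expressing cells and more RNA per cell cannot be told apart.

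Each comparison was fitted on the counts of its pair of groups with edgeR's quasi-likelihood test, and p-values were adjusted over all tested genes by the Benjamini-Hochberg method. The threshold was an adjusted p of 0.05, and a differentially expressed gene (DEG) also had to be protein-coding and changed by over 1.5-fold. At 1 μM against DMSO, 1 of the 8 tested members other than PTGS2 rose (PTGES) and none fell. Over all 15617 tested genes 7.67% rose and 9.95% fell. None of the 8 was a DEG, where 1.56% of 12900 tested protein-coding genes were DEGs with a rise. At 0.3 μM against DMSO, 0 of the 9 tested members, PTGS2 included, passed in either direction. Over all 15762 genes tested there, 0% rose and 0% fell. At an unadjusted p under 0.05 there were 2 members at 0.3 μM (PTGS2 and PTGES) and 594 genes in all, and DESeq2 called no member. Between the doses, 1 of the 8 members other than PTGS2 was higher at 1 μM (PTGES3) and none was lower, where 5.85% of 15583 genes were higher and 6.75% lower. The comparisons share their DMSO or 0.3 μM samples.

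**Figure D1:**
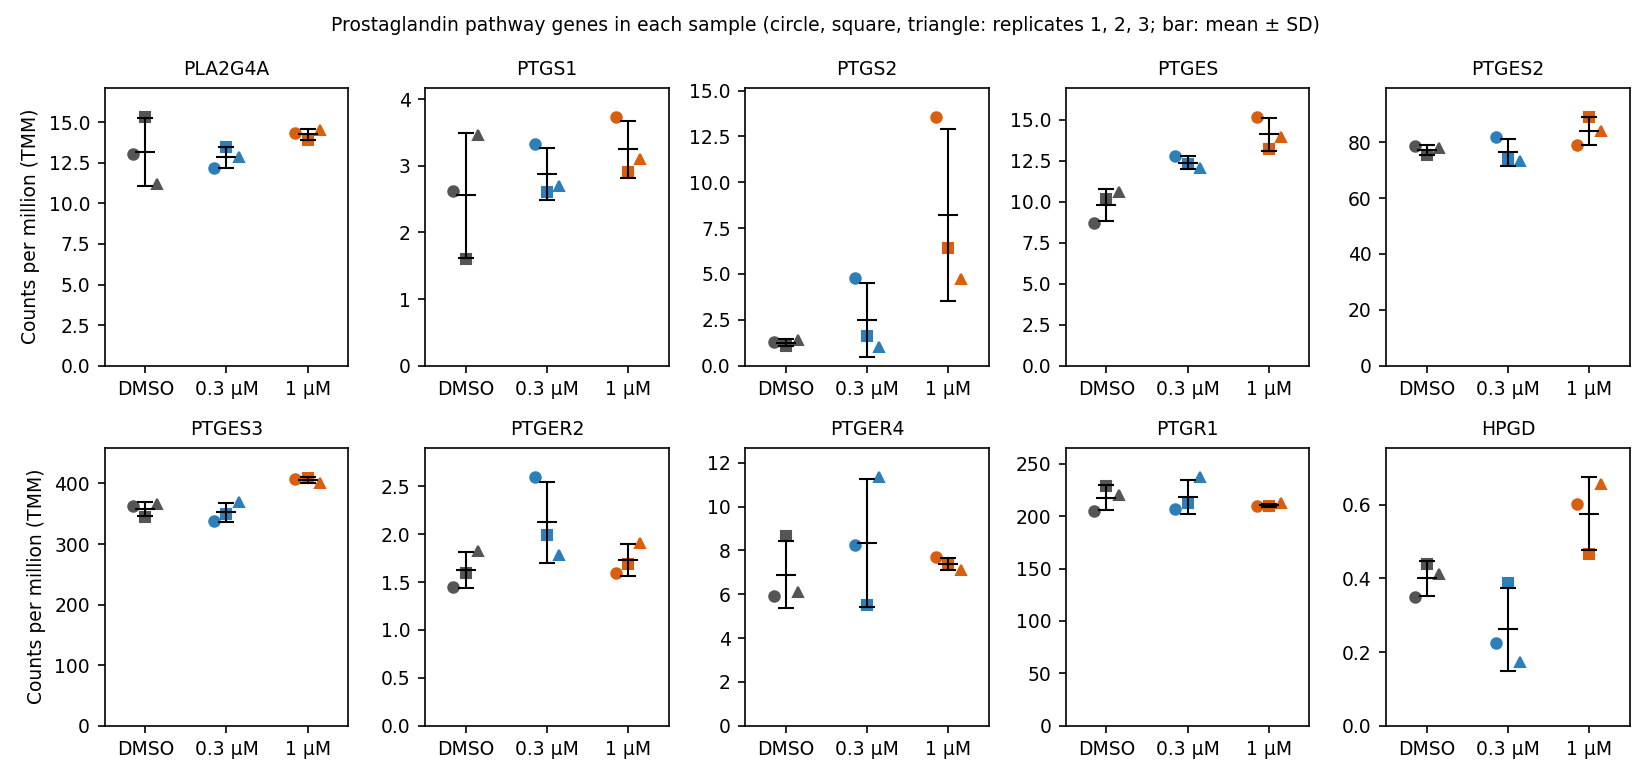
Level of the 10 genes in each sample in CPM (y axis, from 0), by group (x axis); markers are single samples and bars give the mean ± SD of 3 samples. PTGS2 rises above every DMSO sample in all 3 samples at 1 μM with a wide spread, PTGES sits above the DMSO samples at both doses, and most other genes overlap between groups.

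Arachidonic acid release was represented by PLA2G4A, the cytosolic phospholipase A2. Its counts were 224, 278 and 190 with DMSO, 216, 243 and 223 at 0.3 μM and 261, 239 and 243 at 1 μM. The DMSO samples spanned the values at both doses. The log2 fold change at 1 μM was 0.09 ± 0.12 (SE; 95% interval -0.17 to 0.34; edgeR adjusted p = 0.675) and at 0.3 μM -0.05 ± 0.13 (adjusted p = 0.995). PLA2G4A lies on chromosome 1 (186828953 to 186988981, plus strand), its start at -149 kb from that of PTGS2 when the direction of PTGS2 transcription is positive, so that the gene for the release of arachidonic acid and the gene for its cyclooxygenase are neighbours.

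The cyclooxygenase PTGS2 (ENSG00000073756, chromosome 1, 186671791 to 186680427 on the minus strand of GRCh38) had counts of 22, 19 and 24 with DMSO. It had 85, 29 and 18 counts at 0.3 μM and 247, 110 and 79 counts at 1 μM. Every 1 μM sample was above every DMSO sample, but the lowest 1 μM sample lay below the highest 0.3 μM sample. At 0.3 μM only replicate 1 stood above the DMSO range by a wide margin, and replicate 3 was below all DMSO samples. The length-scaled level (FPKM) was 0.236 ± 0.034 (SD, n = 3) with DMSO, 0.467 ± 0.381 at 0.3 μM and 1.55 ± 0.882 at 1 μM.

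The log2 fold change of PTGS2 at 1 μM was 2.70 ± 0.36 (SE), a 6.50-fold rise, and against 0.3 μM it was 1.73 ± 0.41. Leaving out single samples moved the first between 2.14 and 2.98 and the second between 1.16 and 2.63. The lowest values, 2.14 and 1.16, were obtained without replicate 1 at 1 μM, and 2.63 without replicate 1 at 0.3 μM. Both comparisons hold the 1 μM samples that chose PTGS2, and the standard errors take no account of that choice. At 0.3 μM against DMSO, a comparison that shares its DMSO samples with the one that chose the gene, the log2 fold change was 0.99 ± 0.44 and did not pass (edgeR adjusted p = 0.995, unadjusted p = 0.0393). It was 0.09 without replicate 1 at 0.3 μM, so that this difference rested on 1 library.

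The spread of PTGS2 between samples was wider in both treated groups than with DMSO. Its coefficient of variation in CPM was 14.8% with DMSO, 81.7% at 0.3 μM and 57.0% at 1 μM. The median over 14167 genes of at least 1 CPM was 8.14%, 8.32% and 6.70% in the same order. With DMSO 3204 of these genes varied more than PTGS2, at 0.3 μM 11 did and at 1 μM 84 did. The genes were not matched to PTGS2 for level, and PTGS2 had only 19 to 24 counts with DMSO. Its value at 0.3 μM came from counts of 85, 29 and 18. Variation was estimated from 3 samples per group and no test of it was made.

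PTGS1, the constitutive cyclooxygenase, had 45, 29 and 59 counts with DMSO, 59, 47 and 47 at 0.3 μM and 68, 50 and 52 at 1 μM. Its groups overlapped throughout. The log2 fold change at 1 μM was 0.32 ± 0.27, with an interval of -0.24 to 0.89 (edgeR adjusted p = 0.434). PTGS2 made up 30.9% to 41.9% of the summed FPKM of both cyclooxygenases with DMSO (median 35.0%), 29.6% to 61.3% at 0.3 μM (median 40.4%) and 62.5% to 80.0% at 1 μM (median 70.7%). PTGS1 was thus the more abundant cyclooxygenase mRNA in every DMSO sample and PTGS2 in every 1 μM sample, which follows from the rise that chose PTGS2.

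Prostaglandin E2 is made by PTGES, the inducible microsomal synthase known to be coupled to PTGS2, and by PTGES2 and PTGES3. PTGES (ENSG00000148344, chromosome 9, 129738331 to 129753047, minus strand) had 150, 184 and 180 counts with DMSO, 227, 222 and 209 at 0.3 μM and 276, 227 and 233 at 1 μM. All treated samples lay above all DMSO samples, and in CPM the 1 μM samples also lay above the 0.3 μM samples. FPKM was 5.16 ± 0.524 with DMSO, 6.49 ± 0.202 at 0.3 μM and 7.36 ± 0.508 at 1 μM (SD, n = 3).

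At 1 μM PTGES rose by 0.50 ± 0.12 on the log2 scale (1.41-fold, 95% interval 1.19-fold to 1.68-fold; edgeR adjusted p = 0.00953). The adjusted p was between 0.00121 and 0.0446 under the alternatives run. At 0.3 μM the log2 fold change was 0.33 ± 0.13 and did not pass after adjustment (adjusted p = 0.995, unadjusted p = 0.0189). Between the doses it was 0.18 ± 0.11 (adjusted p = 0.309).

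PTGES3, also known as the HSP90 co-chaperone p23, was the most abundant member, with 6236, 6265 and 6235 counts with DMSO. It had 5998, 6295 and 6426 counts at 0.3 μM and 7431, 7035 and 6697 at 1 μM, and in CPM the 1 μM samples lay above all others. The log2 fold change was 0.20 ± 0.06 between the doses (1.15-fold; edgeR adjusted p = 0.0281) and 0.15 ± 0.05 at 1 μM against DMSO (adjusted p = 0.0521). The first did not pass with limma on log2(FPKM + 0.5) (adjusted p = 0.0787), without replicate 1 or replicate 2 at 0.3 μM, or without any single 1 μM sample (adjusted p 0.0779 to 0.0852). The second lay next to the threshold and passed with DESeq2 (adjusted p = 0.0134). Reads shared with the processed pseudogene PTGES3P1, which had a mean of 82 counts, could not be assigned with certainty.

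PTGES2 had 1353, 1369 and 1328 counts with DMSO, 1452, 1332 and 1276 at 0.3 μM and 1442, 1530 and 1404 at 1 μM. Its CPM at 1 μM lay above the DMSO range, but the log2 fold change was 0.09 ± 0.06 and did not pass (edgeR adjusted p = 0.344). At 1 μM against DMSO 3 of 8 members did not overlap between groups (PTGES, PTGES2 and PTGES3, all higher), and 37.4% of all tested genes did not. Between the doses there were also 3 of 8 (PTGES, PTGES3 and PLA2G4A), where 31.9% of genes did not overlap. At 0.3 μM against DMSO there was 1 of 8 (PTGES), where 8.47% did not.

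Within each sample, PTGES was 3.35% to 4.06% of the summed FPKM of the 3 prostaglandin E2 synthases with DMSO, 4.55% to 5.07% at 0.3 μM and 4.45% to 5.19% at 1 μM. Both doses lay above DMSO without overlap and overlapped each other. A two-sided exact permutation test of 3 against 3 samples gave p = 0.1 for each dose, the smallest it can give, and 0.15 after adjustment over 3 comparisons. This share does not depend on the scaling between libraries.

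Of the prostaglandin E2 receptors, EP2 and EP4 raise cAMP. PTGER2 (EP2) had 25, 29 and 31 counts with DMSO, 46, 36 and 31 at 0.3 μM and 29, 29 and 32 at 1 μM. The 1 μM counts stayed close to DMSO, at 0.06 ± 0.27 on the log2 scale with an interval of -0.52 to 0.64 (edgeR adjusted p = 0.902). At 0.3 μM it was 0.38 ± 0.27 (adjusted p = 0.995), and replicate 1 was again the highest sample.

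PTGER4 (EP4) had 102, 157 and 104 counts with DMSO, 146, 99 and 197 at 0.3 μM and 140, 127 and 119 at 1 μM. The groups overlapped, and the widest spread was at 0.3 μM. The log2 fold change at 1 μM was 0.07 ± 0.16 (95% interval -0.28 to 0.42; edgeR adjusted p = 0.807). PTGER4 overlaps TTC33 on the opposite strand, with a mean of 410 counts, and without a stated strand setting for the counting it is not known whether reads of the pair were separated. PTGER4 was 42.6% to 57.4% of the summed FPKM of the 4 prostaglandin E2 receptor genes with DMSO, 41.7% to 60.2% at 0.3 μM and 36.5% to 45.7% at 1 μM.

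Inactivation was represented by PTGR1, a prostaglandin reductase, and HPGD, the dehydrogenase that begins the breakdown of prostaglandin E2. PTGR1 had 3523, 4153 and 3739 counts with DMSO, 3666, 3827 and 4122 at 0.3 μM and 3827, 3609 and 3549 at 1 μM. Its groups overlapped, and its change at 1 μM was -0.07 ± 0.06 on the log2 scale (95% interval -0.20 to 0.05; edgeR adjusted p = 0.404). ZNF483 overlaps it on the opposite strand with a mean of 40.9 counts. HPGD had 6, 8 and 7 counts with DMSO, 4, 7 and 3 at 0.3 μM and 11, 8 and 11 at 1 μM. It did not pass the filter on low counts and was not tested, and its level was within a few counts of the floor.

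**Figure D2:**
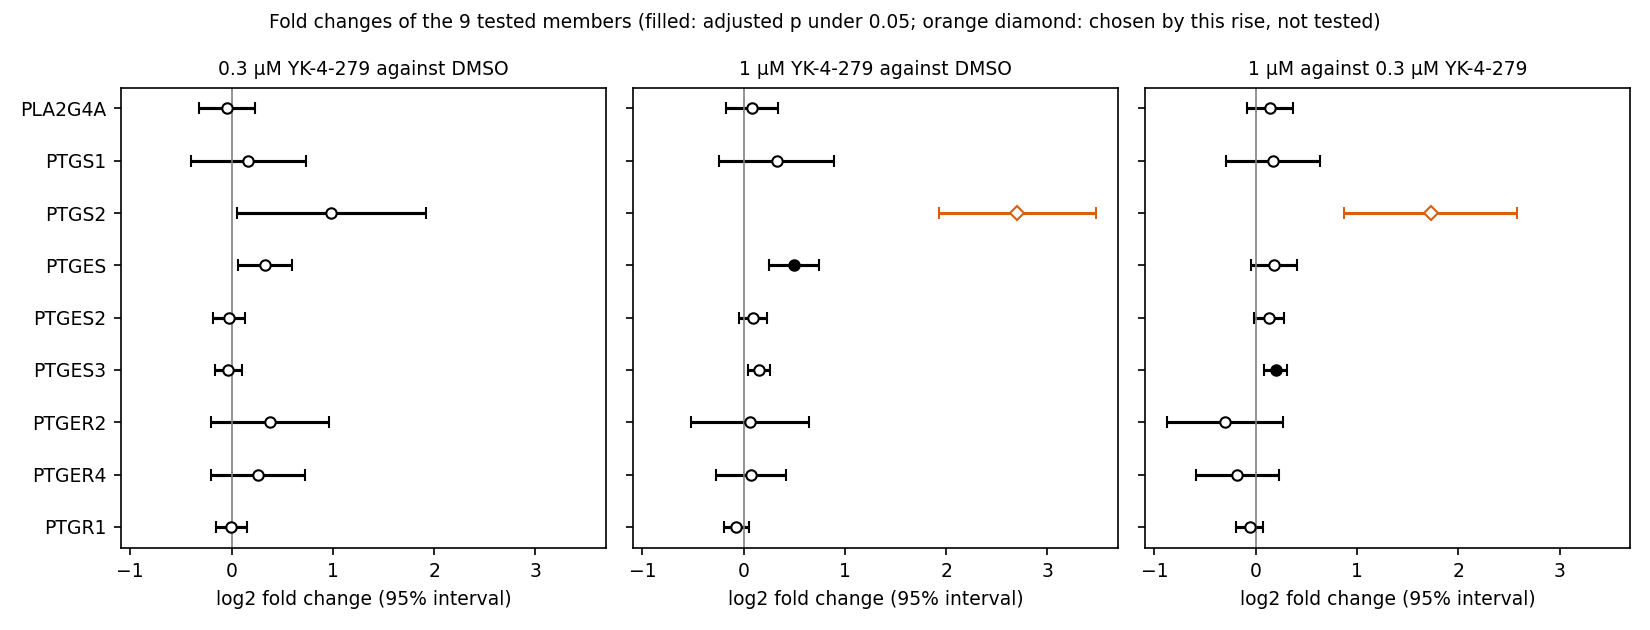
Fold changes (x axis, log2, with 95% intervals) of the 9 tested members (y axis) in the 3 comparisons, 3 samples per group; filled points passed an adjusted p of 0.05, and orange diamonds mark PTGS2 where its own rise chose it. The intervals of most members span 0 and are narrow next to the fold change of 2.70 for PTGS2 at 1 μM. The intervals drawn at the diamonds take no account of that choice and are no test.

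Ordered by FPKM, the levels were PTGES3, PTGR1, PTGES2, PTGES, PLA2G4A and PTGER4 in every group, from 105 ± 3.05 for PTGES3 to 1.74 ± 0.389 for PTGER4 with DMSO. The 6 genes kept this order at both doses. Below them came PTGER2, PTGS1, PTGS2 and HPGD with DMSO, at 0.655 ± 0.076, 0.441 ± 0.161, 0.236 ± 0.034 and 0.0722 ± 0.00873. PTGES and PLA2G4A overlapped over DMSO samples, as did PTGER2 and PTGS1. PTGS2 held rank 9 with DMSO and at 0.3 μM and rank 7 at 1 μM, where its range overlapped that of PTGER4. At 1 μM PTGES3 stood at 118 ± 1.63 FPKM.

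The rest of the pathway, with regulators of PTGS2 and genes that respond to cAMP, was read from lists of 93 further genes. The lists were chosen with earlier results of these data known, so that their counts are descriptions. At 1 μM against DMSO 72 of the 93 genes were tested, and 20 rose and 4 fell, where 7.67% and 9.95% of all tested genes did. Their median log2 fold change was 0.14, against -0.01 over all tested genes. Of the 20 that rose, 13 were inducers of PTGS2 transcription and 3 were cAMP response genes. In the prostanoid lists 1 of 6 other synthases rose, with 0 of 4 other receptors and 0 of 5 genes of transport and inactivation. Of the other phospholipases A2 1 of 6 rose, and of the genes of arachidonate supply and other fates 2 of 15. At 0.3 μM 0 of 70 passed with edgeR, 7 had an unadjusted p under 0.05, and the median was 0.05. Among all 15762 genes tested there, 0 passed and 594 had an unadjusted p under 0.05. Between the doses 18 of 73 were higher at 1 μM and none lower by edgeR, where 5.85% and 6.75% of all tested genes were. With limma on log2(FPKM + 0.5) 6 were higher and none lower. Alternatives gave up to 3 lower genes, the 3 with a minimum total count of 1.

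Of 6 other prostanoid synthases 1 rose at 1 μM, namely AKR1C3, a reductase that makes prostaglandin F2α. It had 107, 128 and 117 counts with DMSO and 162, 182 and 155 at 1 μM, a log2 fold change of 0.49 ± 0.13 (edgeR adjusted p = 0.0224). None of 4 other prostanoid receptors passed. PTGER1 (EP1), with 25 to 35 counts with DMSO, 29 to 30 at 0.3 μM and 43 to 56 at 1 μM, was at 0.74 ± 0.25 against DMSO (adjusted p = 0.0604) and rose by 0.81 ± 0.25 between the doses (adjusted p = 0.0423). None of 5 genes of prostanoid transport and inactivation passed at 1 μM against DMSO, with values from -0.46 for PTGR2 to 0.26 for ABCC4, a prostaglandin exporter.

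Of 6 other phospholipases A2, PLA2G4C rose, from 48, 25 and 22 counts with DMSO to 74, 64 and 52 at 1 μM. Its log2 fold change was 0.97 ± 0.29 (edgeR adjusted p = 0.0304), while the other 5 lay between -0.39 and 0.21. Of 15 genes of arachidonate supply and other fates 2 rose. ALOX5AP, the partner of 5-lipoxygenase, had 11, 14 and 9 counts with DMSO and 24, 24 and 33 at 1 μM (1.23 ± 0.34, adjusted p = 0.0235). ALOX5 itself had 0 to 5 counts in all samples and was not tested. ACSL3, which activates fatty acids, rose by 0.18 ± 0.05 (adjusted p = 0.0323).

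Of 16 tested genes known to induce PTGS2 transcription, 13 rose at 1 μM and 1 fell, against 7.67% and 9.95% of all tested genes, with a median log2 fold change of 0.66. Of those, IL1B, the cytokine interleukin-1β, had 145, 135 and 122 counts with DMSO, 282, 167 and 151 at 0.3 μM and 627, 435 and 418 at 1 μM. The groups of IL1B did not overlap, and its log2 fold change at 1 μM was 1.85 ± 0.13 (edgeR adjusted p = 6.33e-06). IL1A rose by 1.42 ± 0.16 (adjusted p = 5.43e-05). EGR1, an early response transcription factor, had 2 to 14 counts with DMSO and 52 to 76 at 1 μM, a log2 fold change of 3.09 ± 0.39. EGR1 stood above PTGS2 in the ranking that chose the pathway. Its value is therefore a description with no test, although it is counted among the 13. The AP-1 members JUNB and FOSL1 rose by 0.83 ± 0.07 and 0.71 ± 0.07 and CEBPD by 0.78 ± 0.07 (edgeR adjusted p = 9.51e-06, 2.5e-05 and 1.44e-05).

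The remaining inducers that rose were TNF, NFKB1, RELA, RELB, JUN, FOS and CEBPB, by 0.31 (RELA) to 0.98 (FOS). The rise of the NF-kB subunit NFKB1 was 0.61 ± 0.08. SP1 fell by 0.19 on the log2 scale (edgeR adjusted p = 0.0234), and neither CREB1 (-0.02) nor the ETS factor ETV4 (0.17 ± 0.07, adjusted p = 0.0861) passed. At 0.3 μM none of 15 tested inducers passed and 4 had an unadjusted p under 0.05. Of all 15762 genes tested at that dose, 0 passed and 594 had an unadjusted p under 0.05. CD14, a monocyte gene among the leukocyte markers, had 8 to 21 counts with DMSO and 30 to 37 at 1 μM.

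PTGS2 mRNA is also controlled by proteins that bind its AU-rich tail. Of 9 tested, 0 rose and 2 fell at 1 μM, where 7.67% and 9.95% of all tested genes did. TIA1, known to repress PTGS2 translation, fell by 0.46 on the log2 scale (SE 0.08, edgeR adjusted p = 0.00114). Its relative TIAL1 fell by 0.39 on the log2 scale (SE 0.08, adjusted p = 0.0041). TIA1 had 1205, 1420 and 1243 counts with DMSO and 1105, 893 and 866 at 1 μM. TIAL1 had 1757, 1971 and 1914 counts with DMSO and 1702, 1259 and 1416 at 1 μM. The stabilising protein ELAVL1 (0.03 ± 0.06) and the decay factor ZFP36 (0.15 ± 0.10) did not pass.

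Of 11 tested genes that respond to cAMP downstream of EP2 and EP4, 3 rose at 1 μM and 1 fell, again against 7.67% and 9.95% of all tested genes. DUSP1, a phosphatase of MAP kinases, went from 1070, 1063 and 1089 counts to 1781, 1681 and 1573 (0.62 ± 0.06, edgeR adjusted p = 2.42e-05). PDE4D, a cAMP phosphodiesterase, rose by 0.39 ± 0.08 (adjusted p = 0.00479). NR4A3, named after its values were seen, had 2 to 9 counts with DMSO and 31 to 39 at 1 μM. The clock gene PER1 fell by 0.21 on the log2 scale (adjusted p = 0.0353), and NR4A1 (0.16 ± 0.10) and CREM (0.21 ± 0.09) did not pass.

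**Figure D3:**
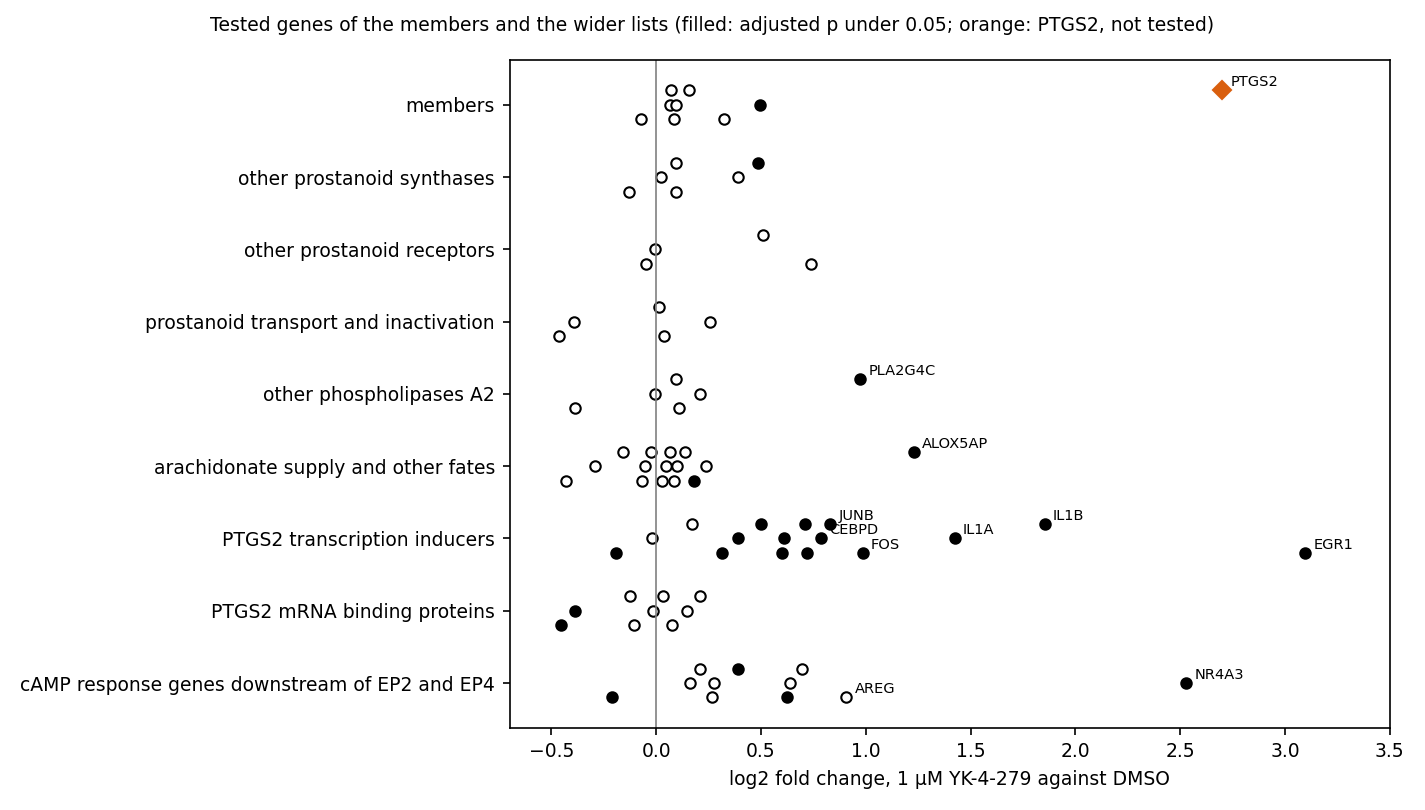
Log2 fold change at 1 μM against DMSO (x axis) of each tested gene of the members and of the wider lists (y axis); filled points passed an adjusted p of 0.05, and the orange diamond is PTGS2, which was chosen by this value. The filled points lie mostly in the list of PTGS2 transcription inducers, 14 of 16 there, against 1 of 8 members other than PTGS2. EGR1 is among the 14 and stood above PTGS2 in the ranking that chose the pathway, so its filled point is no test.

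The 5 genes whose log2 CPM followed PTGS2 most closely over the 9 samples, of 14166 ranked, were TFPI2 (Pearson r = 0.97), ERLIN2 (0.97), WDR77 (0.97), IL1B (0.97) and F2RL2 (0.96). The points share libraries and the difference between doses, and the correlations are descriptions. TFPI2, a protease inhibitor, had 1730, 1798 and 1627 counts with DMSO, 2149, 1840 and 1604 at 0.3 μM and 3072, 2342 and 2411 at 1 μM. F2RL2, a thrombin receptor family gene, had 43, 47 and 43, then 59, 45 and 46, then 87, 72 and 65. In PTGS2 and in all 5 of these genes, replicate 1 was the highest sample at 0.3 μM and at 1 μM, which the choice by likeness largely fixes. Among the other inducers drawn below, IL1A and NFKB1 also had replicate 1 highest at both doses. EGR1, FOS, JUNB, FOSL1, CEBPD and TNF did not. By Spearman's rho the 5 closest genes were UBE2D4, HCG18, MTERF3, OAS2 and SLC35C1, none of which was among the first 5.

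**Figure D4:**
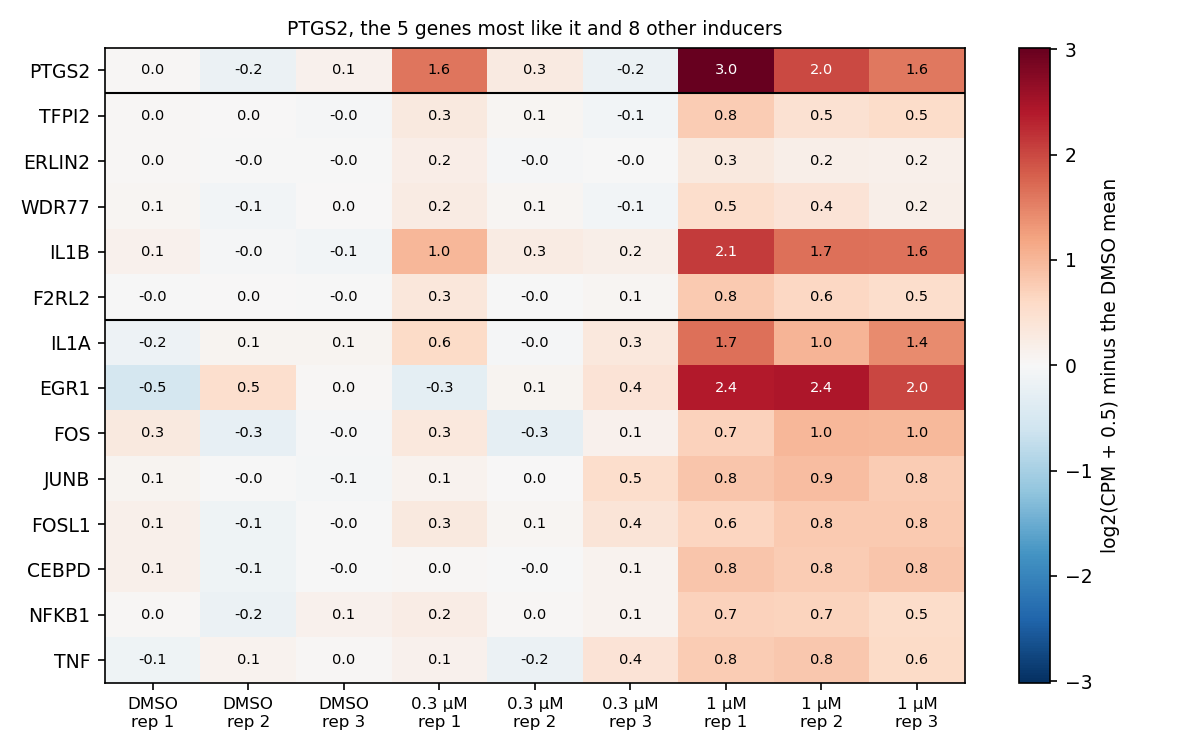
Level in each sample (columns) relative to the mean of the DMSO samples, as the difference in log2(CPM + 0.5), for PTGS2, the 5 genes most like it and 8 of the other inducers (rows). PTGS2 stands at 1.61 in replicate 1 at 0.3 μM and at 3.01 in replicate 1 at 1 μM, whereas EGR1 at 0.3 μM stays between -0.30 and 0.41. IL1A and NFKB1 also have replicate 1 highest at both doses.

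Around PTGS2, 16 genes lie within 500 kb, PTGS2 included, and 7 were tested. The antisense transcript PACERR starts on the plus strand at position 186680622, inside the PTGS2 promoter window printed above, and had 1, 1 and 2 counts with DMSO, 2, 5 and 2 at 0.3 μM and 2, 5 and 5 at 1 μM, too few to test. Of the 6 tested neighbours none rose and 1 fell at 1 μM, where 7.67% and 9.95% of all tested genes did, so that nothing is read from this count. TPR, a nuclear pore gene that starts 304.7 kb downstream of the PTGS2 start, had 3877, 4998 and 3492 counts with DMSO, 4550, 4688 and 4328 at 0.3 μM and 2182, 3899 and 2097 at 1 μM. It fell by 0.61 on the log2 scale (SE 0.18, edgeR adjusted p = 0.0356), and replicate 2 at 1 μM lay inside the DMSO range. PLA2G4A, ODR4, OCLM, HMCN1 and ERVMER61-1 did not pass, with log2 fold changes between -0.46 and 0.09.

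**Figure D5:**
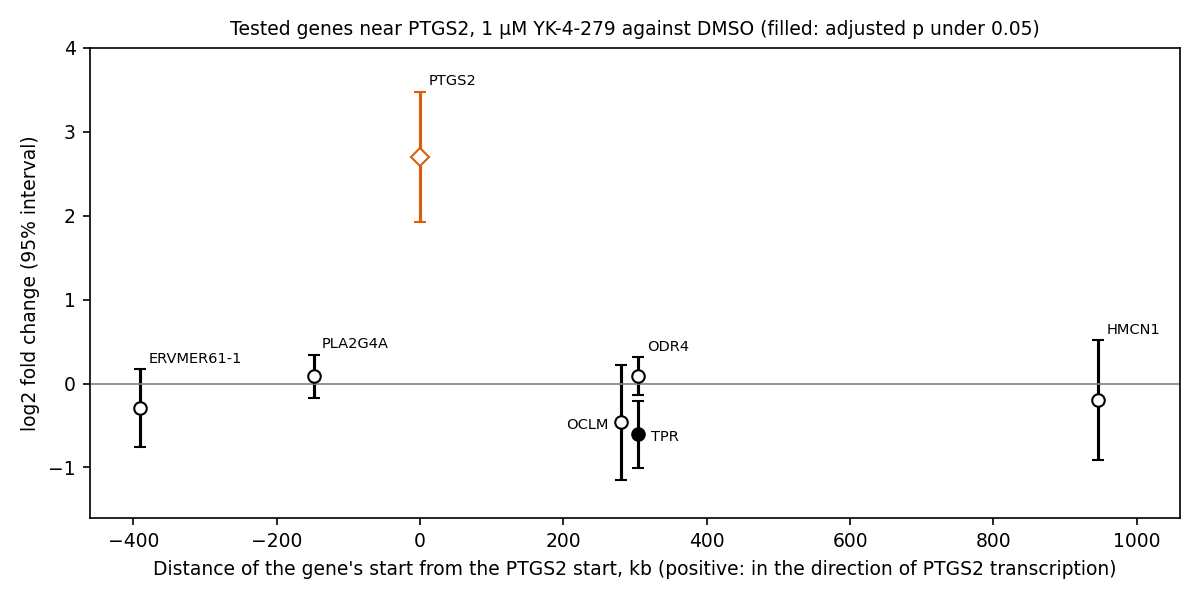
Log2 fold change at 1 μM against DMSO with its 95% interval (y axis) of each tested gene near PTGS2 by the distance of its start from the PTGS2 start in kb (x axis, positive in the direction of PTGS2 transcription). PTGS2, in orange at 2.70, was chosen by this value and not tested, and its interval takes no account of that choice. The only filled point is TPR at -0.61.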

How the data were processed

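Poly(A) RNA of KHM-5M cells was sequenced in 9 samples, 3 per group. The submitters' processing notes name HISAT2 2.0.5, featureCounts 1.5.0-p3 and DESeq2 1.20.0, while the study's methods name HTseq for counting. The labels describe a TruSeq RNA kit, and the study's methods name a stranded TruSeq kit and a small RNA kit. Whether counting used strand is not given in the sources used here. The authors deposited counts per gene without normalization, FPKM (counts scaled to gene length and library size) and the gene length (other annotation columns gave names and positions). The table also holds 10 columns of the authors' own comparisons (group means, log2 fold changes and p-values), which were not used. The study's methods state fewer replicates than the labels, and the 3 labelled samples per group were used.

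Counts were tested with edgeR 4.0.16 (quasi-likelihood, TMM, filterByExpr with a minimum count of 10) in R 4.3.3, fitted on all genes of the groups compared, with Benjamini-Hochberg adjustment over all tested genes. DESeq2 1.42.0, limma 3.58.1 on log2(FPKM + 0.5), RLE scaling, a minimum total count of 1, all 9 samples in the fit, a replicate block and leaving out each sample were alternatives. The code was tested on simulated data. Standard errors of log2 fold changes are the fold change divided by the root of the F statistic. Totals were 16903251 to 18238884 counts, and floors and intervals cover counting error or the spread between samples only. By rule, the named genes of the wider lists were those past the threshold at 1 μM with a mean of at least 1 CPM. At most 6 per list were taken, by adjusted p. Other genes of these lists, some of which did not pass or were not tested, were named outside this rule. The members and lists were chosen with earlier results of these data known. Figures were drawn with Python 3.11.15 and matplotlib 3.10.9.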

Additional observations from a re-analysis of the deposited data

How the results depend on the processing

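At 1 μM against DMSO, 1 member other than PTGS2 passed, and 2 passed with DESeq2, with RLE size factors and with a minimum total count of 1, the added gene being PTGES3. Between the doses 1 passed (PTGES3), and 0 passed with the replicate block (adjusted p = 0.0616) and with limma on log2(FPKM + 0.5) (adjusted p = 0.0787), and leaving out single samples gave 0 to 1. Between the doses 18 genes of the wider lists passed, and 6 did with limma, all among the 18. Genes lower at 1 μM between the doses numbered 0 as reported, 3 with a minimum total count of 1 and 2 with the replicate block. Of the 5 genes most like PTGS2, 0 were shared when Spearman's rho replaced Pearson's r. The log2 fold change of PTGS2 at 1 μM was 1.39 with limma on log2(FPKM + 0.5), a scale whose offset compresses low levels. The cause of the other changes was not tested.

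Values near 0 changed sign. PTGR1 at 0.3 μM was -0.0015, and was 0.0042 with DESeq2, 0.0012 with RLE size factors and 0.0079 with a minimum total count of 1. Leaving out single samples at 0.3 μM against DMSO gave -0.081 to 0.45 for PTGS1, -0.077 to 0.0035 for PTGES2, -0.065 to 0.00028 for PTGES3, -0.062 to 0.041 for PTGR1, -0.15 to 0.083 for PLA2G4A and -0.018 to 0.49 for PTGER4. At 1 μM against DMSO it gave -0.020 to 0.22 for PLA2G4A, -0.0081 to 0.15 for PTGER2 and -0.024 to 0.28 for PTGER4. Between the doses it gave -0.41 to 0.097 for PTGER4.

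Whether the replicate numbers pair the samples could not be settled. Deviations of same-numbered samples correlated weakly, at -0.02 to 0.09 over all comparisons. At 0.3 μM against DMSO they correlated at 0.02 to 0.09, above the -0.07 to 0.004 of differently numbered samples. At 1 μM against DMSO the ranges overlapped, at -0.02 to 0.06 for same and -0.04 to 0.03 for different numbers. Between the doses same-numbered samples lay lower, at -0.0059 to -0.0035 against 0.00065 to 0.0052. Apart from PTGES3 between the doses the replicate block changed no call of a member. Genes with few counts, among them HPGD and PACERR, could not be resolved at this depth.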
